A study of Mus musculus with 11 samples.

Results

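The 36 genes described here encode the glucose and lactate transporters, the enzymes of glycolysis, the gates through which pyruvate enters mitochondria, the enzymes of the pentose phosphate pathway and the hypoxia-inducible transcription factor HIF1A. They were chosen by name and found by Ensembl identifier among 48795 genes in a table of length-scaled expression values (TPM). RNA was taken from spleens of 8 female mice, 8 to 12 weeks old, 10 days after immunisation with sheep red blood cells (SRBCs), and each of the 11 libraries came from 1 mouse. Light zone (LZ) germinal center B cells, sorted as B220+ CD138neg IgDneg CD38neg Fas+ with high CD86 and low CXCR4, came from 4 Myc WT mice (mice 1 to 4) and from 4 Myc V394D mice (mice 5 to 8). Memory B cells (MBCs), sorted as B220+ CD138neg IgDneg CD38+ CD273+, came from mice 1, 3 and 4. In Myc V394D mice the endogenous Myc gene, in all cells of the animal, carries the V394D mutation, a single amino acid change after which MYC still pairs with MAX but not with MIZ1. Mice of both genotypes were on a C57BL/6 background. The labelled names of the mice differ between the genotypes by their stem, and what the stem stands for is not given, so it and the genotype cannot be told apart. Among the Myc WT mice, mouse 4 also has a name stem of its own.

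Glycolysis turns glucose into pyruvate, yielding ATP and carbon for synthesis. Pyruvate is reduced to lactate and exported, or enters mitochondria, where pyruvate dehydrogenase kinases hold back its oxidation. The pentose phosphate pathway branches off at glucose-6-phosphate and gives NADPH and ribose for nucleotides, both in demand in dividing cells. Many of these genes are textbook targets of MYC and of HIF1A, whose binding motifs are the E-box CACGTG and the core letters ACGTG.

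TPM are a share of the library per unit of transcript length, so levels can be compared between genes, but the depth of the libraries is unknown and a feature that takes more of a library leaves less for the rest. Ribosomal RNA took 35.7 to 44.5% of TPM in Myc WT LZ libraries, 44.1 to 61.3% in Myc V394D and 36.1 to 37.5% in MBCs, so differences are also given relative to protein-coding genes. The sort was visible in the RNA: of 8 memory markers 6 were called higher in MBCs (Cd38 was 11.4 to 14.8 TPM in Myc WT LZ libraries and 200 to 276 TPM in MBCs), and of 9 germinal center markers 5 were called lower. Ighd and Fcer2a, genes of naive follicular B cells, were also called higher in MBCs, although the sort excluded IgD+ cells. The MBC libraries stood apart from each other. Of 6668 genes that averaged 10 TPM or more in the LZ libraries, 253 were listed at 0 in the MBC library of mouse 1 and 421 in that of mouse 3, against 57 in that of mouse 4 and 34 to 69 in LZ libraries. The summed level of 6 erythroid genes was 6713 TPM in the MBC library of mouse 3 against 7.6 and 53.4 TPM in the other two. The summed level of 7 myeloid genes was 16.1 to 163 TPM in MBCs against 0.82 to 9.2 TPM in Myc WT LZ libraries, with Csf1r and Itgam called higher and S100a8 and S100a9 listed at 0. In bulk RNA, fewer cells of a type and less RNA per cell cannot be told apart.

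The pathway was abundant in LZ B cells when ranked among all protein-coding genes, many of which were near 0. A mean of 0.765 TPM, that of Pfkm in Myc WT LZ libraries, already stood at the 52.9 percentile. In Myc WT LZ libraries the median gene of the 36 stood at the 85.7 percentile of 21759 protein-coding genes, with 12 of the 36 in the highest 10 percent; the median was at the 82.6 percentile in Myc V394D LZ B cells (10 in the highest 10 percent) and at the 82.0 percentile in MBCs (7 in the highest 10 percent). Gapdh led by far with a mean of 1697 ± 480 TPM (SD, n = 4), ahead of Ldha at 278 ± 85.3. Pgam1 (183 ± 48.0), Eno1 (182 ± 46.9) and Aldoa (160 ± 37.4) followed and did not differ from each other beyond their spread. The entry steps were expressed at far lower levels: Slc2a1, Hk2, Pfkfb3 and Hk1 had means of 11.9, 9.14, 9.66 and 5.00 TPM. Slc16a3, Pfkm and Pdk2 had means under 1 TPM in Myc WT LZ B cells, and Ldhb was listed at 0 in each of the 4. These 4 genes had a mean under 1 TPM in both comparisons and were not tested by limma, leaving 32.

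**Figure D1:**
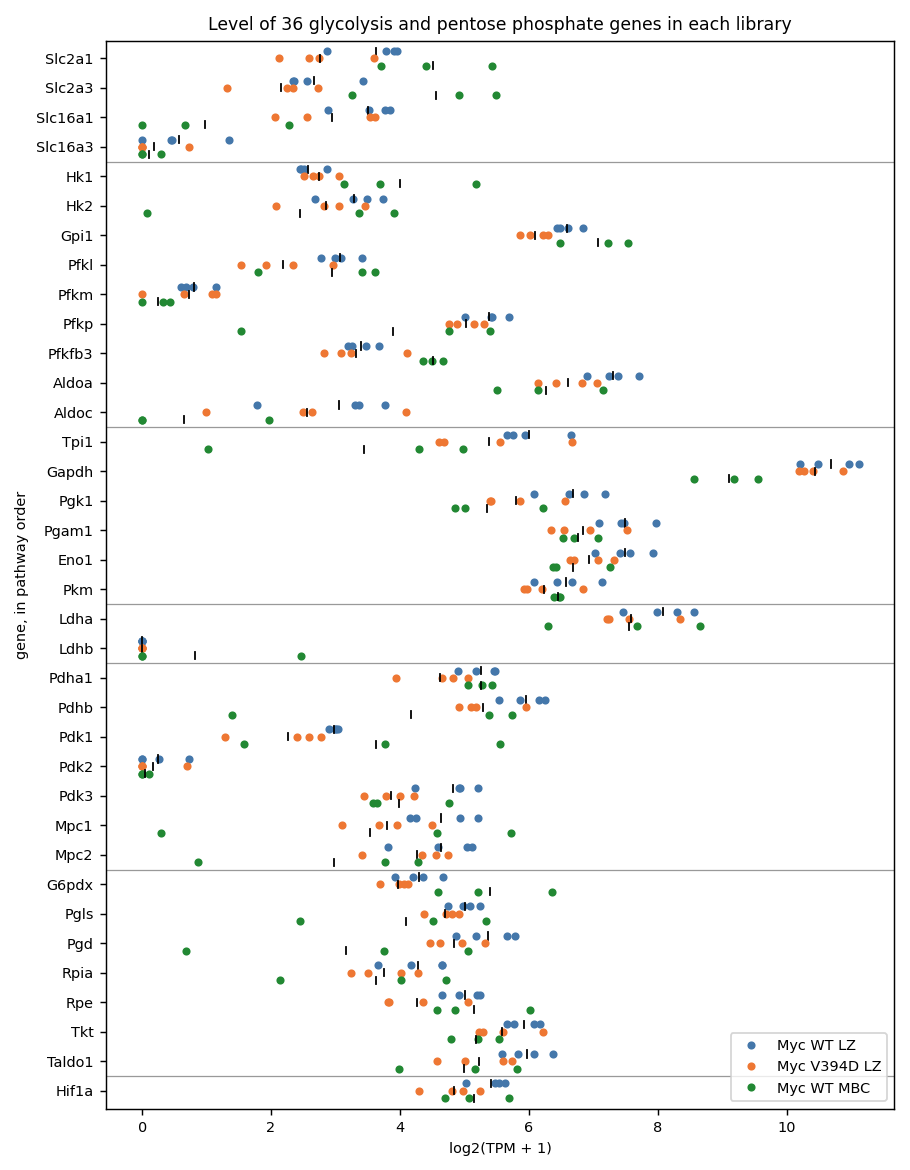
Level of each of the 36 genes in each library, as log2(TPM + 1) on the x axis, with genes in pathway order on the y axis; dots are libraries, short black lines are group means and horizontal lines separate the steps. Gapdh lies above all other genes of the same library in every library, and the MBC dots (green) spread more widely than the LZ dots for genes such as Tpi1, Mpc1 and Pgd.

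The promoters of 3 genes of the MBC comparison are shown for the MYC and HIF1A letters they hold: both genes called lower, and Pfkfb3, which was not called and is shown because 1 of its starts holds CACGTG. These are RefSeq windows on GRCm38.p6, 250 bases before to 50 after a transcript start, 5′ to 3′ on the strand of the gene, with capitals marking ACGTG on either strand and CACGTG where both strands overlap. Slc16a1 (chr3:104638414-104638713, plus strand) and Gapdh (chr6:125165724-125166023, minus strand) were called lower in MBCs, and Pfkfb3 (chr2:11502041-11502340, minus strand, 1 of 2 starts, of which the other holds ACGTG alone) was higher in each MBC library than in any LZ library of Myc WT.
Slc16a1: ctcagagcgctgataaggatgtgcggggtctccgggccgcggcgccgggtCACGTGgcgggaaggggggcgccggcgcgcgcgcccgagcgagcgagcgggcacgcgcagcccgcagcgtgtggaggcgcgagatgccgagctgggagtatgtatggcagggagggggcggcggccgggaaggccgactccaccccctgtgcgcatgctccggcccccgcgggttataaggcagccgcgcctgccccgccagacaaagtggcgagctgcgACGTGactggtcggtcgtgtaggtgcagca
Gapdh: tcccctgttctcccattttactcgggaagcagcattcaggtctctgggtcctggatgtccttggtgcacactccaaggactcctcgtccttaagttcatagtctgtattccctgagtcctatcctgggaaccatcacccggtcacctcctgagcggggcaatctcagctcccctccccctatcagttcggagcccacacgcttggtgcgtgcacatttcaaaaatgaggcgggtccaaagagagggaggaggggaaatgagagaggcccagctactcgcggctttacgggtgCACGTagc
Pfkfb3: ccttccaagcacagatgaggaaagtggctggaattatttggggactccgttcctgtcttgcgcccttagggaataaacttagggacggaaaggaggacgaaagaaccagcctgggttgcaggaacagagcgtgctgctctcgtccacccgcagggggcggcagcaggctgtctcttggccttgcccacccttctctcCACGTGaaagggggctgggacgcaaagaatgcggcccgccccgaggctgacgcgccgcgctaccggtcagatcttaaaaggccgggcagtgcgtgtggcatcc
Promoters were found for 35 of the 36 genes, 51 windows in all. CACGTG was present in 6 of the 51 windows (11.8%), those of Hif1a, Ldha, Pdk2, Pfkfb3, Pfkm and Slc16a1, against 7.15% of 32851 windows of all genes. ACGTG on either strand, which lies inside CACGTG, was present in 22 windows (43.1%) against 19.6% of all windows. Of the other genes whose MBC and LZ values did not overlap, Pgam1 held ACGTG in its window and Hk1 in 1 of 2, while the windows of Tpi1 and Tkt held neither motif. A match describes the letters in the window and was not tested as a binding site.

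To ask how the pathway stood when MYC could not bind MIZ1, LZ B cells of 4 Myc V394D and 4 Myc WT mice were compared. No gene of the 36 passed the threshold (limma on log2(TPM + 1), adjusted p under 0.05 over 12869 genes), where 0.0466% of all genes tested did. The point estimates of 31 of the 32 tested genes (96.9%) were lower in Myc V394D and that of 1, Hk1, was higher, where 73.7% of all genes tested were lower. At an unadjusted p under 0.05, 14 (43.8%) were lower against 15.7% of all genes tested, and 0 were higher against 1.24%. That count rested on single mice: it was 5, 3 and 1 without Myc WT mouse 1, 2 or 3 and 6, 5 and 4 without Myc V394D mouse 6, 7 or 8, but 16 without Myc WT mouse 4 and 18 without Myc V394D mouse 5. The share of all genes tested moved as well, from 9.43% without Myc WT mouse 3 to 21.5% without Myc V394D mouse 5. The count also depended on the fit: by the same rule 5 were lower in limma without the trend (14.4% of all genes), and 3 with all 3 groups in 1 fit (7.22%). The groups did not overlap for 3 genes, Gpi1, Pdk1 and Pdk3, all lower (9.38% against 9.16% of all genes, a share near the background), and for 0 higher (0.816% of all genes). The number was 14 of 32 without Myc WT mouse 4, where the share of all genes rose to 15.6%, and 12 of 32 without Myc V394D mouse 5, where it rose to 19.3%. Across all 36 genes the median log2 difference was -0.52. Since protein-coding genes tested had a median of -0.32, the median relative to them was -0.20, with 29 of 36 genes below the protein-coding median. With TPM rescaled to protein-coding genes, the median was -0.19, 24 of 33 genes then tested were lower and 9 higher (49.5% of all genes were lower), the number lower at an unadjusted p under 0.05 was 1 (5.32% of all genes), and groups did not overlap for 0 genes. The larger share of ribosomal RNA in Myc V394D and the genotype cannot be told apart. Markers of other cells moved beside these values. Of 6 erythroid genes 5 were higher in Myc V394D, 3 of them at an unadjusted p under 0.05 and 0 called, and their summed level was 71.9 to 410 TPM against 116 to 226 in Myc WT. Of 5 plasma cell genes the 4 tested were lower, 1 at an unadjusted p under 0.05, with sums of 134 to 221 against 229 to 381 TPM. All 9 germinal center markers were lower, 3 at an unadjusted p under 0.05, with sums of 687 to 1051 against 1037 to 1274 TPM. These sums are not rescaled for the share of ribosomal RNA. Of all genes tested 73.7% were lower, and 15.7% were lower and 1.24% higher at an unadjusted p under 0.05. The germinal center markers had a median difference of -0.27, against -0.32 for protein-coding genes. No gene of these lists was at 0 throughout either group, and their part in the lower values was not tested.

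To ask how the pathway differed between MBCs and LZ B cells, MBC libraries of mice 1, 3 and 4 were set against the 4 Myc WT LZ libraries. Slc16a1, the lactate and pyruvate transporter MCT1, and Gapdh, the enzyme that opens the energy-yielding stage of glycolysis, were called lower in MBCs. These were 2 of 32 tested genes (6.25%) against 5.04% of 13245 genes called lower, and 0 of the 36 were called higher against 4.17% (limma, adjusted p under 0.05). At an unadjusted p under 0.05, 10 genes were lower (31.2%, against 15.8% of all genes) and 4 were higher (12.5%, against 11.3%). The number lower was 6 without LZ mouse 1 and 5 without LZ mouse 3 (12.9% and 11.3% of all genes), and the number higher was 2 without LZ mouse 2 or LZ mouse 4 (8.39% and 8.08%). With the mouse as a block, a fit that leaves out the unpaired LZ mouse 2, 7 were lower and 0 higher (9.93% and 6.86%). In limma without the trend 6 were lower and 4 higher (16% and 10.4%). The groups did not overlap for 5 tested genes that were lower (15.6%, against 14.4%), Slc16a1, Tpi1, Gapdh, Pgam1 and Tkt, and for 2 that were higher (6.25%, against 11.8%), Hk1 and Pfkfb3. With all 7 libraries these shares of called and of not overlapping genes were near or under the background. The number not overlapping and lower was 13 of 32 without LZ mouse 4, against 17.9% of all genes, and 12 of 32 without MBC mouse 4, against 27.6%; the number higher was 7 of 32 without MBC mouse 1, against 17.4%. The median log2 difference of the 36 genes was -0.69, or -0.56 relative to the protein-coding median of -0.13, with 27 genes lower and 9 higher. Of the 32 tested 24 (75%) were lower, against 55.3% of all genes tested. The number called depended on single libraries: it was 0 without LZ mouse 1 or LZ mouse 3, 1 without LZ mouse 2, LZ mouse 4 or MBC mouse 3, 2 without MBC mouse 1 (Gapdh lower and Slc2a3 higher) and 10 without MBC mouse 4 (8 lower, with Hk1 and Pfkfb3 higher). The background moved with it: 1.03 to 2% of all genes were called lower without 1 of the LZ libraries, 4.43% without MBC mouse 1, 5.9% without MBC mouse 3 and 14% without MBC mouse 4, where 7.06% were called higher. Both comparisons share the Myc WT LZ libraries and are given side by side below.

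**Figure D2:**
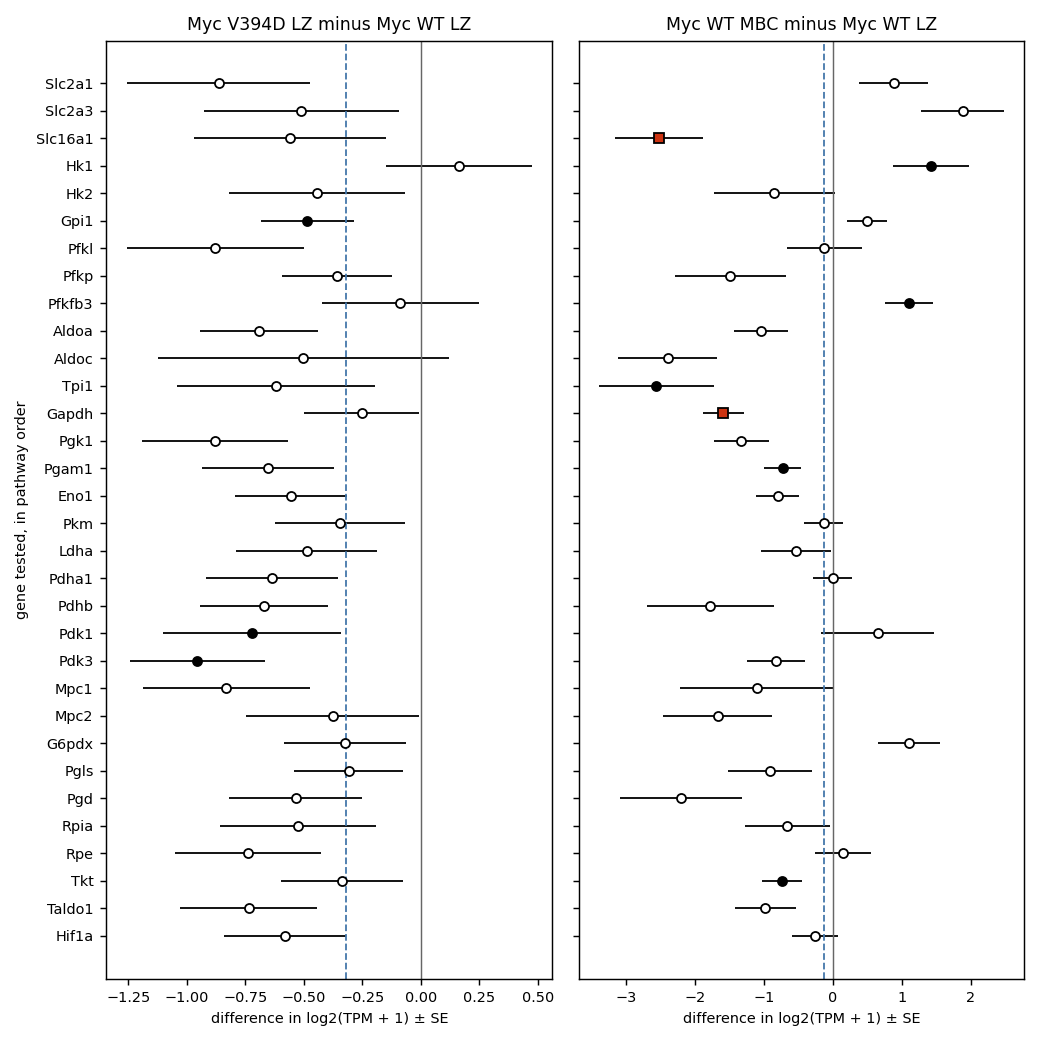
Difference in log2(TPM + 1) of the 32 tested genes, in pathway order on the y axis, for Myc V394D LZ against Myc WT LZ (left) and MBCs against Myc WT LZ (right); bars are ± 1 SE, red squares passed the adjusted threshold, filled circles are other genes whose groups did not overlap and the dashed line is the median of protein-coding genes. On the left all genes but Hk1 lie below 0 and none is red; on the right Slc16a1 and Gapdh are red and the transporters Slc2a1 and Slc2a3 lie above 0.

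Glucose enters B cells through GLUT1 (Slc2a1) and GLUT3 (Slc2a3), and lactate leaves through MCT1 (Slc16a1) and MCT4 (Slc16a3). Values are given in TPM in the order of mice 1 to 4 (Myc WT LZ), mice 5 to 8 (Myc V394D LZ) and mice 1, 3 and 4 (MBC). Slc2a1 measured 13.9, 12.7, 14.4 and 6.31 in Myc WT, 11.03, 3.36, 4.98 and 5.71 in Myc V394D, and 12.0, 41.8 and 20.2 in MBCs. The low Myc WT value of mouse 4 fell within the Myc V394D range, and the difference of -0.86 ± 0.39 (log2, SE) had an adjusted p of 0.287 by limma. In MBCs Slc2a1 overlapped the LZ values, with a difference of 0.88 ± 0.50 (adjusted p = 0.297). Slc2a3 averaged 5.68 ± 2.71 TPM in Myc WT, 3.72 ± 1.70 in Myc V394D and 27.2 ± 17.8 in MBCs, where its difference of 1.89 ± 0.60 missed the threshold (limma, adjusted p = 0.0835). Both transporters were highest in the MBC library of mouse 3, the library with the erythroid RNA. Without it the differences were 0.43 for Slc2a1 and 1.42 for Slc2a3 (limma, adjusted p = 0.511 and 0.128), and whether the erythroid RNA had a part in them was not tested.

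Slc16a1 (Ensembl ENSMUSG00000032902, chr3:104638668-104658462 on GRCm38), whose promoter above holds CACGTG, measured 13.4, 10.5, 12.6 and 6.37 TPM in Myc WT LZ B cells, 10.6, 11.3, 4.89 and 3.19 in Myc V394D, and was listed at 0 in MBC mouse 1 with 0.58 and 3.87 in the other two. All 3 MBC values lay below all 4 LZ values. The lowest were those of mice 1 and 3, the MBC libraries with the most genes listed at 0. In mouse 4 the MBC value was 3.87 against 6.37 in LZ B cells. The difference was -2.52 ± 0.63 in log2(TPM + 1) (limma, adjusted p = 0.0420; exact permutation p = 0.0286, the smallest possible). With the mouse as a block, since LZ B cells and MBCs came from the same animals, a fit that leaves out the unpaired LZ mouse 2, the difference was -2.52 and no longer passed (limma, adjusted p = 0.222). Leaving out 1 library in turn gave differences from -3.17 to -2.03 and adjusted p from 0.00687 to 0.140 by limma, and the call was lost without any one of the LZ libraries, MBC mouse 1 or MBC mouse 3. Slc16a3 did not exceed 1.55 TPM in any library and was listed at 0 in 6 of 11.

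Upper glycolysis traps glucose and commits it to the pathway, with hexokinases (Hk1, Hk2) and phosphofructokinases (Pfkl, Pfkm, Pfkp) as its gates. Hk1 measured 6.28, 4.44, 4.72 and 4.54 TPM in Myc WT, 7.28, 4.72, 5.66 and 5.25 in Myc V394D, and 35.3, 11.9 and 7.76 in MBCs. Every MBC value was above every Myc WT LZ value, led by mouse 1, and the difference of 1.43 ± 0.55 had an adjusted p of 0.135 by limma. It ranged from 0.84 to 1.86 with 1 library left out. Hk2, the inducible hexokinase, measured 10.2, 5.44, 12.3 and 8.62 in Myc WT, 9.97, 7.28, 3.22 and 6.03 in Myc V394D, and 9.24, 0.05 and 14.0 in MBCs. The MBC library of mouse 3 was near 0 while the other two lay inside or above the LZ range, and without it the difference turned from -0.85 to 0.34 (limma, adjusted p = 0.570 and 0.586). In Myc V394D, Hk1 was 0.16 ± 0.31 higher and Hk2 0.44 ± 0.38 lower in log2 units (limma, adjusted p = 0.824 and 0.572).

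Pfkfb3 makes fructose-2,6-bisphosphate, the activator of phosphofructokinase. It measured 11.8, 10.1, 8.15 and 8.57 TPM in Myc WT, 6.10, 16.2, 7.49 and 8.41 in Myc V394D, and 21.7, 24.4 and 19.5 in MBCs. The MBC values were close together and above every LZ value, with a difference of 1.11 ± 0.35 that missed the threshold (limma, adjusted p = 0.0827, and 0.0496 without MBC mouse 4); the difference in Myc V394D was -0.09 ± 0.33. Gpi1, which turns glucose-6-phosphate into fructose-6-phosphate, measured 95.8, 87.9, 113 and 85.0 in Myc WT, 77.3, 57.2, 73.4 and 63.9 in Myc V394D, and 88.0, 184 and 148 in MBCs. All Myc V394D values lay below all Myc WT values (difference -0.48 ± 0.20; limma, adjusted p = 0.249; exact permutation p = 0.0286). Relative to protein-coding genes the Gpi1 difference was -0.16.

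Among the phosphofructokinases Pfkp prevailed, with means of 41.3 ± 7.85 TPM in Myc WT, 31.9 ± 5.54 in Myc V394D and 23.0 ± 19.7 in MBCs, where mouse 3 had 1.90. Pfkl averaged 7.48 ± 1.61, 3.88 ± 2.13 and 7.77 ± 4.65 TPM. Pfkm measured 1.21, 0.52, 0.60 and 0.73 in Myc WT, 1.22, 0, 1.13 and 0.57 in Myc V394D, and 0.25, 0 and 0.35 in MBCs. Its MBC values were below those of Myc WT LZ B cells, at levels too low for the limma test. Aldolase splits the sugar into 3-carbon pieces. Aldoa averaged 160 ± 37.4, 99.7 ± 27.8 and 84.6 ± 49.99 TPM, with differences of -0.69 ± 0.25 in Myc V394D and -1.05 ± 0.39 in MBCs (limma, adjusted p = 0.210 and 0.125). Aldoc ranged from 2.45 to 12.6 in Myc WT and 0.98 to 16.1 in Myc V394D and was listed at 0 in 2 of 3 MBC libraries, with 2.91 in mouse 4.

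Lower glycolysis, from triosephosphate isomerase to pyruvate kinase, was the step at which the estimates leaned most uniformly down in MBCs: 6 of 6 genes were lower, 5 of them at an unadjusted p under 0.05 and 1, Gapdh, past the adjusted threshold (15.8% and 5.04% of all genes were lower by these rules), with a median difference of -1.06 against -0.13 for protein-coding genes. Gapdh (ENSMUSG00000057666, chr6:125161715-125166467 on GRCm38) measured 1983, 1425, 2208 and 1173 TPM in Myc WT, 1863, 1228, 1360 and 1165 in Myc V394D, and 376, 576 and 747 in MBCs. Each MBC library was below each LZ library. The difference was -1.59 ± 0.30 (limma, adjusted p = 0.0150; exact permutation p = 0.0286), and -1.66 with the mouse as a block and without LZ mouse 2 (limma, adjusted p = 0.0443). Leaving out 1 library in turn gave -1.82 to -1.32, and the adjusted p passed 0.05 without LZ mouse 1 or LZ mouse 3 (highest 0.0565). The annotation holds 167 genes, nearly all pseudogenes, with a transcript at least 90% identical to Gapdh, 107 of them above 0 in some library, which took 3.60 to 11.1% of the TPM of Gapdh and these copies; Gapdh was also called with its copies summed. In Myc V394D, Gapdh overlapped Myc WT with a difference of -0.25 ± 0.25 (limma, adjusted p = 0.621) that turned to 0.13 with TPM rescaled to protein-coding genes and to 0.09 with the median ratio.

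Tpi1, the isomerase that lets both 3-carbon pieces go on, measured 49.3, 60.0, 99.5 and 52.6 TPM in Myc WT, 101, 24.6, 23.4 and 45.9 in Myc V394D, and 1.03, 18.7 and 30.6 in MBCs. The MBC values were all below the Myc WT values, with mouse 1 near 0 (difference -2.56 ± 0.84; limma, adjusted p = 0.0899). This difference ranged from -3.33 to -1.35 with 1 library left out. Pgam1, phosphoglycerate mutase, measured 177, 170, 250 and 135 in Myc WT, 183, 122, 79.7 and 92.5 in Myc V394D, and 133, 91.3 and 102 in MBCs. The highest MBC value lay just below the lowest Myc WT value (difference -0.73 ± 0.27; limma, adjusted p = 0.120). In Myc V394D mouse 7, which had the lowest Pgam1, the identical copy Pgam1-ps2 was listed at 36.5 TPM against 1.00 to 5.98 in the other LZ libraries, so the split of reads between them is uncertain.

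Pgk1, the first ATP-forming kinase, averaged 105 ± 32.2 TPM in Myc WT, 58.1 ± 24.6 in Myc V394D and 43.9 ± 25.2 in MBCs, with differences of -0.88 ± 0.31 and -1.33 ± 0.40 (limma, adjusted p = 0.2003 and 0.0737). In MBCs Pgk1 was called lower without MBC mouse 4 (-1.76; limma, adjusted p = 0.0155), with the median ratio (0.0414), with 3 groups in 1 fit (0.0483) and with mice 1 to 3 alone (0.0200). Eno1, enolase, averaged 182 ± 46.9, 123 ± 28.1 and 106 ± 39.7 TPM. Pkm, pyruvate kinase, averaged 98.0 ± 31.1, 76.7 ± 24.9 and 86.1 ± 2.79 TPM and had the smallest difference of the 6 in MBCs, -0.13 ± 0.28 (limma, adjusted p = 0.804). Lower glycolysis thus held genes with differences from -2.56 to -0.13 in MBCs and from -0.88 to -0.25 in Myc V394D, where 3 of 6 had an unadjusted p under 0.05 (15.7% of all genes were lower by this rule) and 0 passed the adjusted threshold. Of these 3, Pgam1 had an unadjusted p of 0.0726 by limma with its copies summed, and with TPM rescaled to protein-coding genes none of the 6 was under 0.05 (Pgk1 the lowest, 0.0548).

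The genes of dividing cells moved beside these values in MBCs. Of 6 dividing-cell and dark zone genes 5 were called lower in MBCs, among them Mki67, and their summed level was 236 to 372 TPM against 709 to 1459 in Myc WT LZ libraries; Cxcr4, the dark zone receptor of that list, was not called. In Myc V394D the same sum was 750 to 1353 TPM and none of the 6 was called. Whether the number of dividing cells had a part in the lower Gapdh, Slc16a1 and other glycolysis values of MBCs was not tested.

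**Figure D3:**
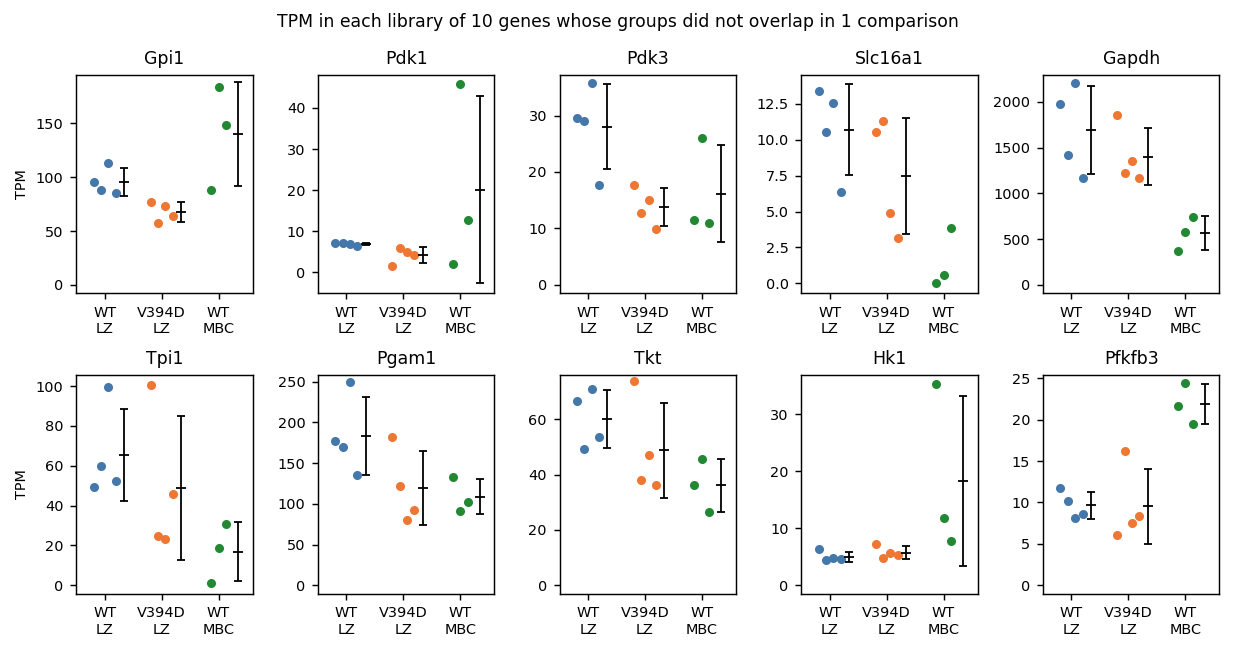
TPM in each library (y axis, linear) of 10 tested genes whose groups did not overlap in 1 of the 2 comparisons with Myc WT LZ B cells; dots are libraries, and bars are the mean ± SD, left out where a library is listed at 0. Gpi1, Pdk1 and Pdk3 were lower in each Myc V394D library than in any Myc WT LZ library; Slc16a1, Gapdh, Tpi1, Pgam1 and Tkt were lower, and Hk1 and Pfkfb3 higher, in each MBC library.

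Lactate dehydrogenase joins pyruvate and lactate, and its subunits come from Ldha and Ldhb. Ldha measured 313, 253, 374 and 174 TPM in Myc WT, 324, 186, 150 and 147 in Myc V394D, and 77.7, 401 and 204 in MBCs. The MBC values spanned the LZ values on both sides, with a difference of -0.53 ± 0.51 that turned positive without mouse 1; the Myc V394D difference was -0.49 ± 0.30 (limma, adjusted p = 0.540 and 0.434). Ldhb was listed at 0 in 10 of 11 libraries and at 4.51 TPM in MBC mouse 4. Its copy Gm5514, a pseudogene 98% identical to it, was listed at 4.31 and 0.84 TPM in Myc WT LZ mice 1 and 3, where Ldhb was at 0, so reads of Ldhb may have been split between them.

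Pyruvate enters mitochondria through the carrier Mpc1 and Mpc2, is oxidised by pyruvate dehydrogenase (Pdha1, Pdhb) and is held back by the kinases Pdk1, Pdk2 and Pdk3, which switch that enzyme off. Pdk3 and Pdk1, the kinases expressed enough to test, were lower in each Myc V394D library than in any Myc WT LZ library. Pdk3 measured 29.5, 29.0, 35.8 and 17.8 TPM in Myc WT, 17.7, 12.8, 15.0 and 9.86 in Myc V394D, and 11.4, 26.1 and 10.9 in MBCs. Its highest Myc V394D value all but touched the lowest Myc WT value, and the difference of -0.95 ± 0.29, the most negative of the 32 genes in this comparison, had an adjusted p of 0.153 by limma (unadjusted 0.00663; exact permutation p = 0.0286). Relative to protein-coding genes the Pdk3 difference was -0.63. Pdk1 measured 7.03, 7.18, 6.94 and 6.48 in Myc WT, 1.43, 5.87, 4.98 and 4.29 in Myc V394D, and 1.99, 45.7 and 12.6 in MBCs. The Myc WT LZ values of Pdk1 were within 1 TPM of each other, while those of MBCs spread from below the LZ values to far above them (Myc V394D difference -0.72 ± 0.38; limma, adjusted p = 0.362). With 1 library left out the Myc V394D difference of Pdk1 ranged from -0.89 to -0.39. Pdk2 did not exceed 0.66 TPM.

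Pdha1 averaged 37.5 ± 6.92 TPM in Myc WT, 24.4 ± 7.50 in Myc V394D and 37.2 ± 4.88 in MBCs. Its difference was -0.64 ± 0.28 in Myc V394D and 0.00 ± 0.29 in MBCs (limma, adjusted p = 0.281 and 0.997). Pdhb averaged 62.0 ± 13.4, 39.5 ± 14.4 and 31.6 ± 26.6 TPM, with 1.63 in MBC mouse 1. Both subunits of the enzyme had a lower mean in Myc V394D, with no call. Mpc1 averaged 25.1 ± 9.30, 13.82 ± 5.83 and 25.0 ± 25.9 TPM, and Mpc2 25.4 ± 9.41, 19.3 ± 7.001 and 10.6 ± 8.96. In MBC mouse 3 Mpc1 was listed at 0.22 TPM and its identical copy Mpc1-ps at 2.18 TPM. Of the 6 tested genes of this step 4 were lower at an unadjusted p under 0.05 in Myc V394D and 0 in MBCs (15.7% and 15.8% of all genes). With TPM rescaled to protein-coding genes, 1 of all the members was lower at that threshold in Myc V394D.

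The oxidative arm of the pentose phosphate pathway (G6pdx, Pgls, Pgd) yields NADPH, and the other genes (Rpia, Rpe, Tkt, Taldo1) shuffle its sugars. In MBCs the estimate of G6pdx was above 0 and those of Pgls and Pgd were below 0. G6pdx, the entry enzyme, measured 17.5, 19.4, 24.4 and 14.2 TPM in Myc WT, 16.4, 15.7, 11.8 and 14.8 in Myc V394D, and 23.1, 81.0 and 36.1 in MBCs. Only MBC mouse 1 lay within the Myc WT range, and the difference of 1.10 ± 0.45 (limma, adjusted p = 0.154) was 0.62 without mouse 3. Pgd averaged 41.7 ± 12.0 TPM in Myc WT, 28.3 ± 7.95 in Myc V394D and 15.1 ± 16.0 in MBCs, with 0.61 in mouse 1 (difference in MBCs -2.20 ± 0.89; limma, adjusted p = 0.149). Leaving out 1 library in turn moved the Pgd difference in MBCs between -3.15 and -0.96. Pgls averaged 31.5 ± 4.57, 25.3 ± 4.09 and 21.8 ± 17.4 TPM (difference in MBCs -0.91 ± 0.61; limma, adjusted p = 0.375). That of Pgls ranged from -1.53 to -0.092 with 1 library left out. In Myc V394D the difference of G6pdx was -0.32 ± 0.26 (limma, adjusted p = 0.551), close to the protein-coding median.

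Tkt, transketolase, measured 66.7, 49.2, 71.1 and 53.6 TPM in Myc WT, 73.7, 38.1, 47.1 and 36.4 in Myc V394D, and 36.2, 45.5 and 26.6 in MBCs. Each MBC value was below each Myc WT LZ value (difference -0.74 ± 0.30; limma, adjusted p = 0.148). Taldo1, transaldolase, averaged 62.8 ± 15.1, 38.4 ± 13.7 and 34.9 ± 20.1 TPM, Rpia 19.2 ± 6.02, 13.1 ± 4.51 and 14.6 ± 10.9, and Rpe 31.4 ± 5.84, 19.5 ± 9.10 and 38.2 ± 22.4. Of the 7 genes of the pathway 7 were lower in Myc V394D and 5 in MBCs, and none passed the adjusted threshold in either comparison (2 and 3 had an unadjusted p under 0.05, which 15.7% of all genes had as lower and 1.24% as higher in Myc V394D, and 15.8% and 11.3% in MBCs). Hif1a, the regulator, measured 48.2, 43.2, 45.3 and 31.5 TPM in Myc WT, 30.6, 27.0, 36.7 and 18.7 in Myc V394D, and 32.5, 25.0 and 50.6 in MBCs. Hif1a of Myc V394D overlapped Myc WT through Myc WT mouse 4 alone (difference -0.58 ± 0.26; limma, adjusted p = 0.286), and the MBC difference was -0.26 ± 0.33 (adjusted p = 0.655).

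The part of protein-coding TPM taken by the pathway differed between genotypes by less than the spread between mice and was lower in MBCs, as the plot of percent by step shows. The 36 genes took 0.664 ± 0.124% of protein-coding TPM in Myc WT LZ B cells, 0.652 ± 0.0781% in Myc V394D and 0.372 ± 0.0728% in MBCs, with 0.289, 0.404 and 0.424% in the MBC libraries against 0.528 to 0.780% in Myc WT LZ. The MBC and LZ ranges did not overlap, and no test was run on this sum. Much of the gap was Gapdh, which made up 45.9 to 52.2% of the TPM of the 36 genes in Myc WT, 51.4 to 56.6% in Myc V394D and 26.3 to 33.5% in MBCs. Without Gapdh the percentages were 0.339 ± 0.0513, 0.301 ± 0.0392 and 0.261 ± 0.0422, and the MBC range (0.213 to 0.290%) overlapped the Myc WT range (0.278 to 0.396%). The 4 transporters took 0.00554 ± 0.00143% in Myc WT and 0.0105 ± 0.00645% in MBCs, where the libraries of mice 1, 3 and 4 had 0.00420, 0.0171 and 0.0101%. That of mouse 1 lay within the Myc WT range (0.00390 to 0.00738%), and the highest was that of mouse 3, the library with the erythroid RNA. Lower glycolysis took 0.446 ± 0.0946% in Myc WT and 0.182 ± 0.0428% in MBCs.

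**Figure D4:**
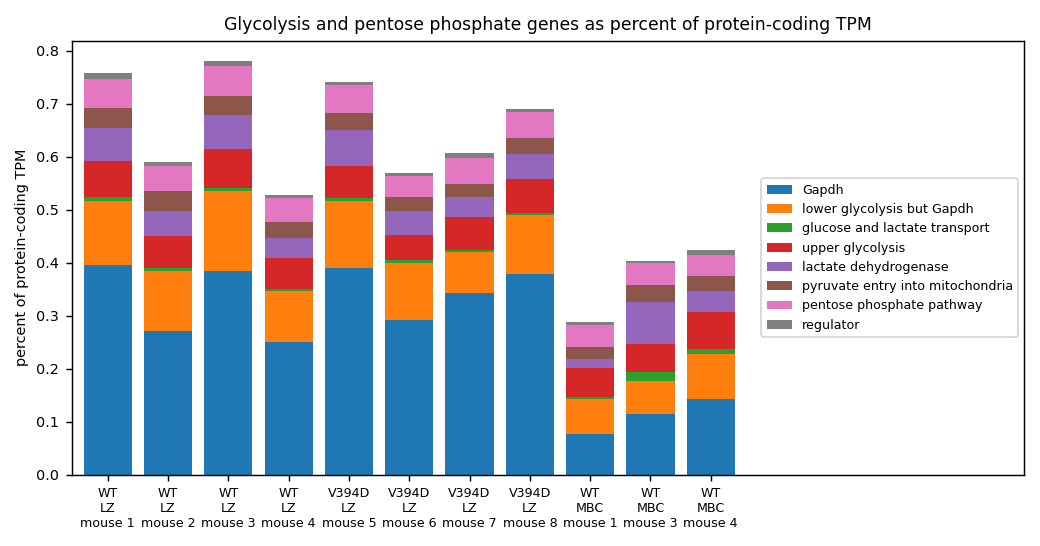
Percent of protein-coding TPM (y axis) taken by the 36 genes in each library (x axis), stacked by pathway step with Gapdh shown apart. The 3 MBC libraries reach 0.289 to 0.424%, below all 8 LZ libraries, and the Gapdh segment accounts for much of the gap.

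Shares within an enzyme family do not move with the scaling of a library and were compared by exact permutation of 9 shares in 2 comparisons, 18 tests. Pfkl made up 13.9, 15.0, 15.9 and 15.4% of phosphofructokinase TPM in Myc WT LZ mice 1 to 4 and 21.4, 56.7 and 26.7% in MBCs, with Pfkp lower to match (82.6 to 83.9% against 43.3 to 78.1%). Both MBC ranges lay outside the narrow LZ ranges, with an exact permutation p of 0.0286, the smallest possible, and an adjusted p of 0.257. The 56.7% of MBC mouse 3 came with Pfkp at 1.90 TPM in that library. The share of Slc2a1 in the glucose transporter pair was 59.0 to 75.7% in Myc WT LZ and 41.0 to 58.4% in MBCs, also without overlap (exact permutation p = 0.0571, adjusted 0.309). Hk2 made up 55.1 to 72.3% of hexokinase TPM in Myc WT LZ and 20.8, 0.419 and 64.3% in MBCs (exact permutation p = 0.0857, adjusted 0.309). It was thus the minor isoform in 2 of 3 MBC libraries, those of mice 1 and 3, which had the most genes listed at 0. In mouse 3 Hk2 was at 0.05 TPM, and the share of mouse 4 lay inside the LZ range. In Myc V394D no share lay above, or below, the Myc WT range in all 4 mice. The Pfkl share was 10.2, 9.64, 4.56 and 18.8% in mice 5 to 8, below the narrow Myc WT range in 3 mice and above it in 1 (exact permutation p = 0.171, adjusted 0.441). The Hk2 share was 52.1 ± 10.9% against 63.7 ± 7.17% (exact permutation p = 0.114, adjusted 0.343). None of the 18 tests passed after adjustment, but with 0.0286 the smallest p, most of the 18 would have had to reach it. The adjusted values therefore cannot decide whether a share differed. The share of Ldhb was 0 in every LZ library, and those of Pfkl and Pfkp nearly mirror each other.

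**Figure D5:**
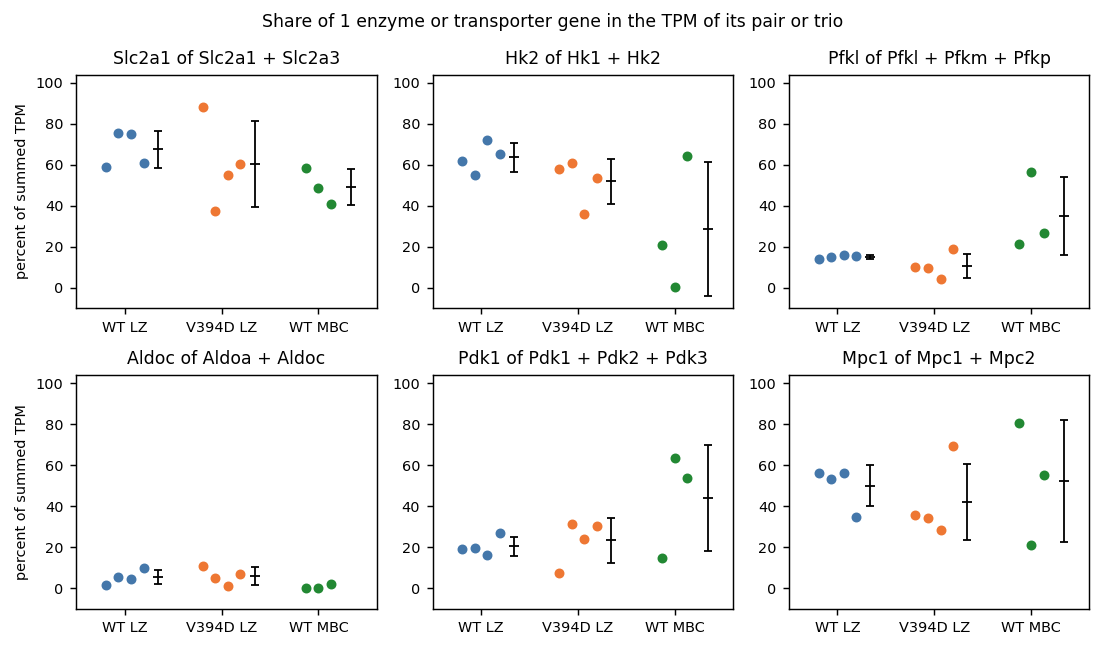
Share (y axis, percent of the summed TPM of the family) of 1 gene in each library by group; dots are libraries, and bars are the mean ± SD, left out where a library is at 0. The Pfkl share is 13.9 to 15.9% in Myc WT LZ libraries and 21.4 to 56.7% in MBCs, while the groups overlap for Hk2, Aldoc, Pdk1 and Mpc1.

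Of 43 other genes of glycolysis and the pentose phosphate pathway, such as further isoforms, 23 were expressed enough to test. In Myc V394D 15 were lower and 8 higher, with 0 called, 3 lower and 0 higher at an unadjusted p under 0.05 by limma (15.7% and 1.24% of all genes), and a median of -0.07. In MBCs 12 were higher and 11 lower, 2 and 1 of them at an unadjusted p under 0.05 (11.3% and 15.8% of all genes), and 1 was called lower (5.04% of all genes): Pfkfb1, another bifunctional enzyme of the Pfkfb3 family. It measured 10.5, 7.06, 5.17 and 7.39 TPM in Myc WT, 6.11, 1.82, 9.69 and 2.88 in Myc V394D, and 0, 0 and 0.60 in MBCs. Pfkfb1 thus fell (difference -2.83 ± 0.49; limma, adjusted p = 0.0119) where Pfkfb3 of the same MBC libraries lay above its LZ values. Among 14 hypoxia targets outside glycolysis 9 were tested. In Myc V394D 8 were lower and 1 higher, with 0 called and a median of -0.54 (73.7% of all genes were lower). In MBCs 6 were higher and 3 lower, 2 and 1 of them at an unadjusted p under 0.05, and 1 was called higher (4.17% of all genes): Kdm3a, a histone demethylase, rose from 25.8, 30.1, 29.3 and 25.9 to 61.3, 57.7 and 64.5 TPM (difference 1.11 ± 0.26; limma, adjusted p = 0.0310). With the mouse as a block, which leaves out LZ mouse 2, neither Pfkfb1 (limma, adjusted p = 0.130) nor Kdm3a (0.248) was called. Pfkfb1 lost its call without LZ mouse 2 (adjusted p = 0.0585), and Kdm3a without any one of the LZ libraries (0.0903 to 0.104). None of 8 regulators of the hypoxia response (6 tested) was called in either comparison.

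Of 5 genes of the MondoA axis, which senses glucose, 3 were tested. In MBCs 2 were higher and 1 lower, and 1 was called higher (4.17% of all genes): Txnip, a MondoA target that restrains glucose uptake. It measured 47.7, 82.7, 57.9 and 52.8 TPM in Myc WT, 59.9, 26.0, 66.9 and 56.6 in Myc V394D, and 107, 477 and 178 in MBCs. Each MBC value was above each LZ value (difference 1.81 ± 0.47; limma, adjusted p = 0.0458), with the highest in the library of mouse 3. The call was marginal: the adjusted p was 0.0509 with the mouse as a block, 0.0864 to 0.122 without any one of the LZ libraries and 0.0543 without MBC mouse 4. Myc itself measured 32.6, 35.5, 45.2 and 30.7 TPM in Myc WT, 66.8, 48.2, 24.9 and 44.3 in Myc V394D, and 82.9, 43.2 and 69.7 in MBCs. Gene levels do not distinguish the V394D allele from the wild-type one, so Myc TPM do not check the genotype labels. Its differences were 0.28 ± 0.29 in Myc V394D and 0.81 ± 0.31 in MBCs (limma, adjusted p = 0.645 and 0.139). Without MBC mouse 3, the library with the erythroid RNA, Myc was called higher in MBCs (1.07; limma, adjusted p = 0.0364).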

How the data were processed

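RNA of sorted B cells was sequenced by the authors, who aligned reads with STAR 2.5.2a and quantified Ensembl genes of GRCm38 with RSEM 1.3.0 (strand-specific), per the labels and methods, and deposited TPM with 2 decimals in 1 table. TPM hold no depth, so no counting error can be given; precision comes from the spread between mice. The submitters' processing notes also name DESeq2 1.18.1; its results were not used here. Symbols came from GENCODE M21, with 360 genes unmatched. The groups were fitted by limma 3.58.1 (R 4.3.3, with a trend) on log2(TPM + 1), which understates changes of low genes, keeping genes that averaged 1 TPM or more, 2 groups per fit, two-sided, with Benjamini-Hochberg adjustment over all genes tested. Exact two-sided permutation tests used 70 groupings (4 against 4) or 35 (3 against 4), with 0.0286 the smallest p. The fit was tested on simulated data. Copies were transcripts at least 90% identical by blastn 2.17.0. MBC and LZ libraries of 1 mouse are paired by the animal; their deviations from group means correlated with r = 0.00507, 0.0115 and -0.047. The members and lists were chosen with earlier results of these data known. Named with values in every library are members called or not overlapping in either comparison, plus Slc2a1, Hk2, Pfkfb3, Gapdh, Ldha, Ldhb, G6pdx and Hif1a; of other lists, called genes, Txnip and Myc.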

Additional observations from a re-analysis of the deposited data

Results flagged for a closer look

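Among 74 groups of 4 libraries tested (1 gene in the LZ libraries of 1 genotype), 4 held a library far from the other three, where chance flags about 1 in 20. That rate does not apply to Slc16a3 and Pdk2, since a single value above 0 beside values of 0 always meets the criterion. Slc2a3 was 9.70 TPM in Myc WT mouse 1 against 4.07 to 4.86 TPM in the other Myc WT LZ libraries. Hk1 was 6.28 TPM in the same library against 4.44 to 4.72 TPM. Slc16a3 was 0.66 TPM in Myc V394D mouse 8 and Pdk2 was 0.62 TPM in Myc V394D mouse 7, and both were listed at 0 in the other Myc V394D libraries.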

How the results depend on the processing

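Depth is not known from TPM, the MBC group holds 3 libraries that differ in how many genes are listed at 0, and genes of low level could not be compared. In Myc V394D, 0 of the 36 genes were called under each alternative run, including each library left out in turn. The median difference of the 36 genes in Myc V394D, -0.52, was -0.19 with TPM rescaled to protein-coding genes and -0.22 with the median ratio, and ranged from -0.70 to -0.40 with 1 library left out; relative to protein-coding genes it ranged from -0.31 to -0.11, and was -0.37 with no filter. In MBCs the median, -0.69, ranged from -0.82 to -0.36 with 1 library left out and was -0.26 with the MBC library of mouse 4 alone; relative to protein-coding genes it ranged from -0.64 to -0.34. The number of genes called in MBCs, 2, was 1 with a pseudocount of 0.1 (Gapdh), 0 with no filter on low values, 1 without the trend (Slc16a1), 3 with the median ratio (Pgk1 added, lower), 5 with all 3 groups in 1 fit (7.71% of all genes called lower and 5.37% higher), 1 with the mouse as replicate block (Gapdh; 0.897% and 0.989%), and 0 to 10 with 1 library left out. Chosen after seeing the data were the MBC library of mouse 4 alone, which gave 1 call (Slc2a3, higher, as were 6.51% of all genes), its spread assumed to be that of the LZ libraries, and mice 1 to 3 alone, which gave 5, all lower (8.02% of all genes). Slc16a1 lost its call with a pseudocount of 0.1, with no filter, with the block and with mouse 4 alone, and Gapdh with no filter, without the trend and with mouse 4 alone. Beyond the settings given with them, Txnip lost its call with a pseudocount of 0.1, no filter, the median ratio, no trend and mice 1 to 3 alone, and Kdm3a with no trend and mice 1 to 3 alone. The cause of these shifts was not tested.

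With TPM rescaled to protein-coding genes, differences in Myc V394D turned positive for Pfkp (0.017), Pfkfb3 (0.27), Gapdh (0.13), Pkm (0.036), G6pdx (0.043), Pgls (0.066), Tkt (0.042), Kdm3a (0.30) and Txnip (0.13), and with the median ratio for Pfkfb3 (0.23), Gapdh (0.092), G6pdx (0.0033), Pgls (0.025), Tkt (0.0016), Kdm3a (0.26) and Txnip (0.087). Pfkm, too low to test otherwise, was tested with the protein-coding scaling, where its difference was 0.036 in place of -0.081, and with no filter. In MBCs Pdha1 turned to 0.020 and 0.0100 under these scalings. With the MBC library of mouse 4 alone, Hk2 (0.61), Pfkl (0.34), Pdha1 (0.17), Pgls (0.32) and Hif1a (0.28) turned positive and Rpe (-0.43) negative. With 1 library left out, the sign turned in Myc V394D for Pfkfb3 (-0.35 to 0.075), Aldoc (-1.02 to 0.019), Kdm3a (-0.19 to 0.17) and Txnip (-0.40 to 0.048), and in MBCs for Hk2 (-1.58 to 0.34), Pfkl (-0.46 to 0.44), Pkm (-0.30 to 0.053), Ldha (-1.08 to 0.093), Pdha1 (-0.12 to 0.098), Pdk1 (-0.31 to 1.68), Mpc1 (-2.20 to 0.51), Rpia (-1.20 to 0.080) and Rpe (-0.29 to 0.44). It also turned for the shares, in percentage points, of Slc2a1 (-16.6 to 0.32) and Aldoc (-0.91 to 2.42) in Myc V394D and of Mpc1 (-11.8 to 17.9) in MBCs. None of these values had been called.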
